A study of Macaca mulatta with 13 samples.

Results

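Macrophage and complement genes were examined in a thigh muscle, the vastus lateralis, of old rhesus monkeys (Macaca mulatta). The set comprised 10 genes: the macrophage genes CD68, CD14, CD163, MRC1, CSF1R and TYROBP, and the complement genes C1QA, C1QB, C1QC and C3. Members were the array's probe sets annotated with exactly 1 of these symbols. This gave 12 probe sets for 8 genes, of 14132 genes with a singly named probe set on the array. CD163 and C3 had no such probe set and were not analysed here.

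The calorie-restricted (CR) group held 8 monkeys of 27 to 32 years, and the diet duration given was 18.5 years. The control group held 5 monkeys of 27 to 30 years on the control diet. All animals were male, and each gave 1 one-colour Affymetrix array. Ages are known per group only, and a comparison of these groups asks how long-term restriction relates to transcript levels in old muscle.

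Macrophages are resident phagocytes of muscle, lying mostly in the connective tissue between fibres, and their number and state change after injury and with age. The growth factor receptor CSF1R keeps them alive, and TYROBP passes signals of several of their surface receptors through its cytoplasmic activation motif. C1q is the recognition molecule of the classical complement pathway. It is built from A, B and C chains encoded by C1QA, C1QB and C1QC, is made largely by macrophages rather than by the liver, and tags debris and cells for clearance. In the RefSeq annotation of assembly T2T-MMU8v2.0 these 3 genes lie side by side with 0 other genes between them. In whole muscle, fewer cells of a type and less RNA per cell cannot be told apart.

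The deposited signals carried the same 2% trimmed mean of 500 on each array, and the r between any 2 arrays lay between 0.834 and 0.940 over 26383 tested probe sets. The number of arrays limits the precision. The muscle fibre genes CKM and MB, for creatine kinase and myoglobin, gave signals of 61449.8 to 111127 and 74019.8 to 138987 in CR muscle, against 48816 to 96337 and 52680.4 to 118924 in control muscle. ACTA1 had no singly named probe set. Single animals stood apart for the macrophage and C1q genes. CR replicate 2 had the highest signal of all 13 animals for 8 of the 10 member probe sets that were tested. Control replicate 4 was among the 3 highest for 9 of them. At the other end, CR replicate 6 was among the 3 lowest for 8, and CR replicate 1 and control replicate 5 for 7 each. High and low animals thus occurred on both diets.

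Transcripts of macrophage surface and lysosomal proteins overlapped between the diets, with some CR animals outside the control range at either end. CD14, the co-receptor that hands bacterial lipopolysaccharide to TLR4, had signals from 193 in CR replicate 6 to 1484 in CR replicate 2, with a median of 595 over the 8 CR animals. In control replicates 1 to 5 its signals were 573, 797, 738, 972 and 311. Of the CR animals 5 lay within the control range, 1 above it and 2 below it. The log2 difference, CR minus control, was -0.22 ± 0.39 (SE), with a 95% interval from -1.05 to 0.61. It was -0.0053 without CR replicate 6 and -0.48 without control replicate 5.

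CD68, a glycoprotein of macrophage lysosomes, was measured by a pair of probe sets. The brighter one (probe set 1, MmuSTS.3489.1.S1_at) gave 48.4 in CR replicate 6 and 633 in CR replicate 2, with a CR median of 272. Its control signals were 160.2, 224, 416, 484 and 208 in replicates 1 to 5. It spanned 13.1-fold from the lowest to the highest animal, and the 2 lowest and the 2 highest CR animals lay outside the control range. The dimmer one (probe set 2, MmugDNA.11447.1.S1_at) ran from 105 to 237 with a median of 144 in CR muscle. In control muscle it gave 91.6, 77.9, 123, 357 and 76.3, so that the single value of control replicate 4 was the highest of all. The diet differences were -0.15 ± 0.50 for probe set 1, or 0.19 without CR replicate 6 and -0.34 without CR replicate 2, and 0.33 ± 0.38 for probe set 2 (log2, SE). Leaving out control replicate 4 gave 0.73 for probe set 2, and leaving out control replicate 5 gave 0.17.

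MRC1, the mannose receptor CD206 of tissue-resident and alternatively activated macrophages, had 3 probe sets that did not behave alike. The brightest (probe set 1, MmuSTS.1149.1.S1_at) was nearly flat, from 1158 to 2082 with a median of 1502 in CR muscle, against 1464, 1544, 1292, 1286 and 1741 in control replicates 1 to 5. Probe set 2 (MmuSTS.1523.1.S1_at) varied widely, from 277 in CR replicate 6 to 1683 in CR replicate 2 with a CR median of 512, against control signals of 484, 528, 1109, 982 and 189. Probe set 3 was below the filter on dim probe sets, which left out those with a mean signal under 107. Its signals were 5.30 to 171 with a median of 75.1 in CR muscle, against 9.92, 85.6, 13.6, 28.5 and 70.4 in control muscle. Log2 differences were 0.031 ± 0.15 (SE) for MRC1 probe set 1 and -0.063 ± 0.45 for probe set 2, with ranges from -0.039 to 0.095 and from -0.45 to 0.19 when 1 animal was left out. In the fit without the filter, probe set 3 differed by 0.94 ± 0.79, with a 95% interval from -0.71 to 2.60.

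The signalling genes gave a similar picture. CSF1R, the receptor for CSF1 and IL34, had its lowest CR signal, 328, in replicate 1 and its highest, 1278, in replicate 2, with a CR median of 473. The control signals were 575, 596, 839, 1029.95 and 319, and 7 of 8 CR animals lay within that range. TYROBP, an adaptor for receptors such as TREM2, ranged from 511 in CR replicate 8 to 2095 in CR replicate 2 with a CR median of 850.2. Its control signals were 792, 874, 1062, 1876 and 476, and again 7 of 8 CR animals lay within their range. The log2 difference was -0.22 ± 0.32 (SE) for CSF1R, or -0.043 without control replicate 4 and -0.47 without control replicate 5. It was 0.0017 ± 0.36 for TYROBP, or 0.26 and -0.24 without the same animals, and the sign of the TYROBP value turned after median centring of the arrays (-0.029).

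The C1q chains were detected together, and none differed between the diets beyond the spread among animals. C1QA (probe set 1, MmuSTS.1957.1.S1_at) gave 564 in CR replicate 6 and 3031 in CR replicate 2, with a CR median of 1222. In control replicates 1 to 5 it gave 1114, 931, 1400.3, 1883 and 452. C1QB ranged from 219.8 in CR replicate 6 to 1370.1 in CR replicate 2 with a CR median of 664, against control signals of 614, 571, 681, 839 and 394. For C1QC the CR signals ran from 231 in replicate 1 to 1038 in replicate 2 with a median of 512, and the control signals were 362, 486, 659, 676 and 392. CR replicate 2 was thus the highest animal for each chain. The lowest was control replicate 5 for C1QA, while for C1QB 2 and for C1QC 3 CR animals lay below every control.

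On the log2 scale C1QA averaged 10.17 ± 0.80 in CR muscle and 10.03 ± 0.77 in control muscle (SD, n = 8 and 5). The means were 9.14 ± 0.83 and 9.23 ± 0.40 for C1QB and 8.89 ± 0.71 and 8.96 ± 0.41 for C1QC, in CR and in control muscle. Differences were 0.14 ± 0.39 (SE) for C1QA, -0.096 ± 0.35 for C1QB and -0.071 ± 0.32 for C1QC. With 1 animal left out they ranged from -0.16 to 0.35 for C1QA, from -0.28 to 0.098 for C1QB and from -0.23 to 0.078 for C1QC. The 95% interval of C1QB, from -0.84 to 0.65, corresponds to 0.558-fold to 1.57-fold. A second, dim C1QA probe set (MmugDNA.2736.1.S1_at) was below the filter. It gave 13.7 to 149.8 with a median of 118 in CR muscle, against 124, 73.8, 77.5, 91.5 and 105 in control muscle, and differed by -0.34 ± 0.57 in the fit without the filter.

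**Figure D1:**
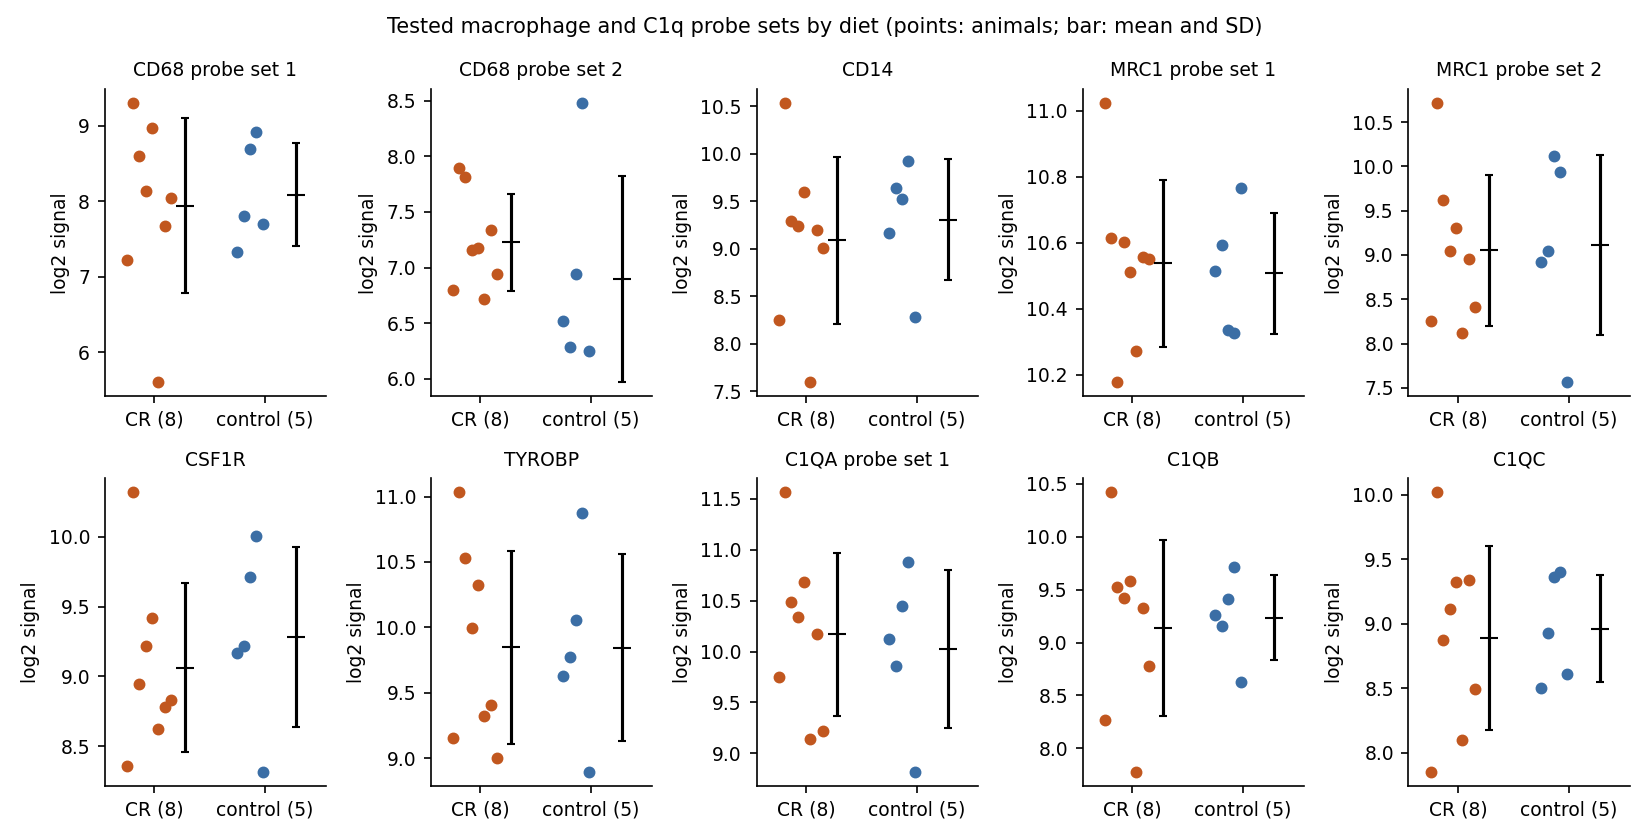
Log2 signal of the 10 tested probe sets in the 8 CR animals (orange) and the 5 control animals (blue), with the mean and SD beside each group; each panel has its own vertical axis. The groups overlap in every panel, and CR replicate 2 is the top point in 8 panels.

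No member differed past the threshold between CR and control muscle. In limma's fit to log2 signals, with p-values adjusted over all 26383 tested probe sets (Benjamini-Hochberg), 0 of 10 member probe sets had an adjusted p under 0.05, where the share over all tested probe sets was 0.0%. The adjusted p of the members was 0.999 in limma's test, and the lowest unadjusted p was 0.386, for CD68 probe set 2. At an unadjusted p under 0.05 there were 0 members, against 2.43% of all tested probe sets. The signal was higher in CR for 4 members and lower for 6, where 48.1% of all tested probe sets were higher and 51.9% lower. The median log2 difference was -0.067 over the members and -0.012 over all tested probe sets. Half-widths of the unadjusted 95% intervals ran from 0.33 for MRC1 probe set 1 to 1.06 for CD68 probe set 1. At the adjusted threshold, which no probe set passed, a difference had to be larger still to be called with these arrays. A further fit took RNA quality as covariates, measured by how much brighter the 3-prime than the 5-prime control probe sets of GAPDH and actin were. In it 10 of 10 members were higher in CR by 0.0022 to 0.43, and none passed. Of all tested probe sets 46.8% were higher in that fit. Most members varied together among animals, as described below, so these 10 signs are not independent of each other.

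**Figure D2:**
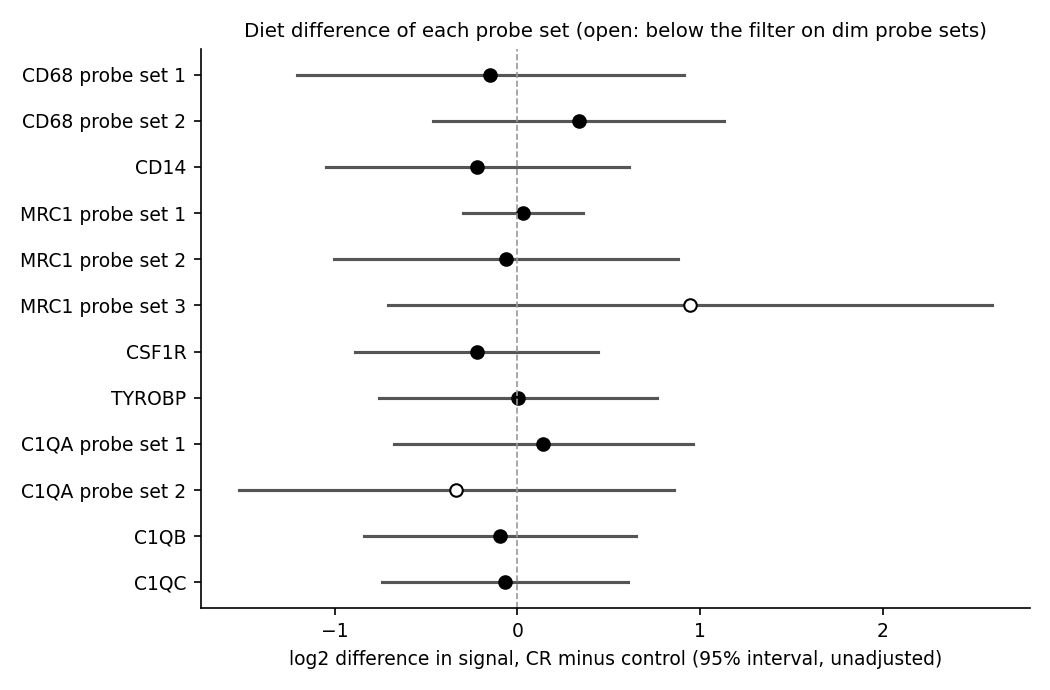
Log2 difference in signal, CR minus control, of each of the 12 member probe sets with its unadjusted 95% interval; open circles are the 2 probe sets below the filter, from the fit without it. Each interval includes 0.

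The members varied among animals more than most transcripts, with MRC1 probe set 1 as the exception. Their residual SD within diets lay between 0.62 for CSF1R and 1.02 for CD68 probe set 1 on the log2 scale, except for 0.23 for MRC1 probe set 1. The median over all tested probe sets was 0.45. In the ranking of all tested probe sets by residual SD, CSF1R stood at percentile 74.0, C1QB at 81.0, C1QA at 85.7, CD14 at 86.1 and CD68 probe set 1 at 94.2. MRC1 probe set 1 stood at percentile 7.11. From the lowest to the highest animal the signal spanned 6.71-fold for C1QA, 6.23-fold for C1QB, 4.49-fold for C1QC, 7.70-fold for CD14 and 1.80-fold for MRC1 probe set 1.

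**Figure D3:**
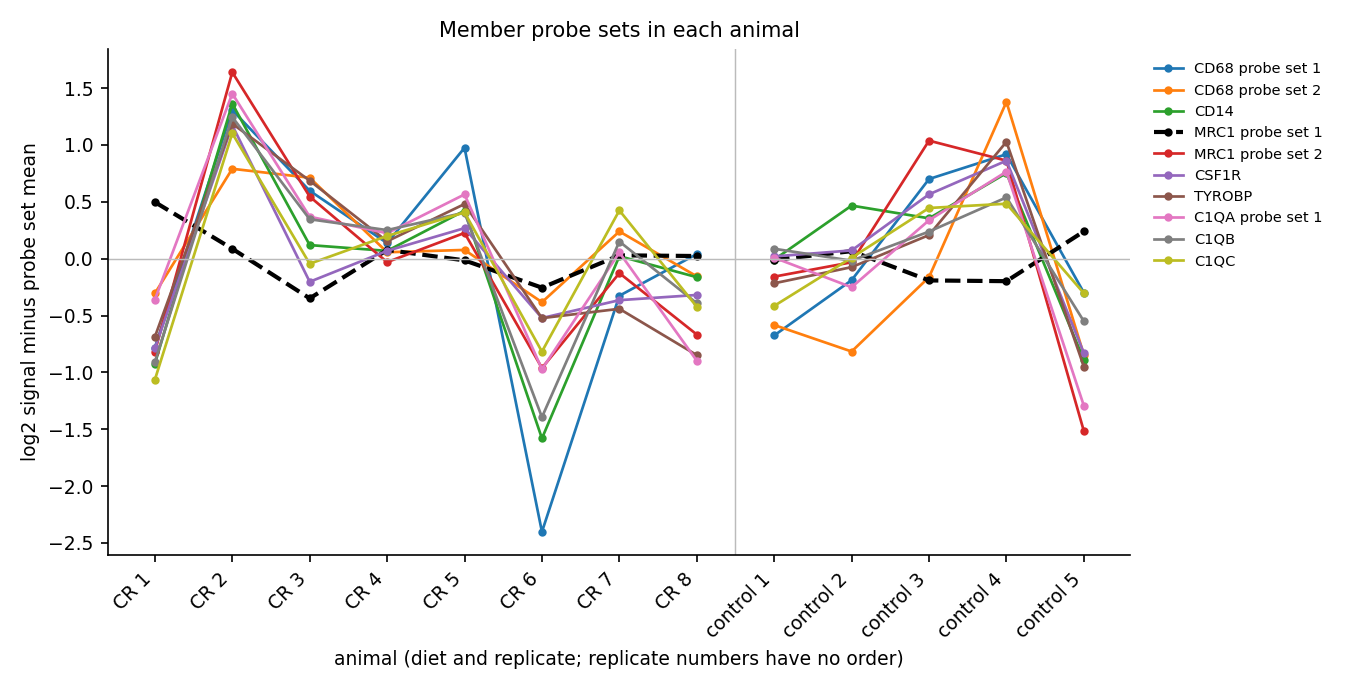
Log2 signal of each tested probe set minus its own mean, in CR replicates 1 to 8 and control replicates 1 to 5; the dashed black line is MRC1 probe set 1. The coloured lines peak together in CR replicate 2, except that of CD68 probe set 2, which is highest in control replicate 4. Most of them dip in CR replicate 1, CR replicate 6 and control replicate 5, while the dashed line stays between -0.35 and 0.50.

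These deviations were shared between genes. Over the 13 animals, 33 correlations were computed: between the brightest probe sets of the 8 genes, and between probe sets of the same gene. For the 21 pairs among CD68, CD14, CSF1R, TYROBP, C1QA, C1QB and C1QC, Pearson's r ran from 0.716 to 0.959 with a median of 0.856, and Spearman's rho from 0.769 to 0.967. All 21 passed a permutation test with Benjamini-Hochberg adjustment over the 33 correlations, for r (adjusted p from 0.000165 to 0.00822) and for rho. After removal of the diet means r was 0.716 to 0.961. Leaving out the 2 animals farthest from the median of the first gene, mostly CR replicates 2 and 6, gave r from 0.607 to 0.915, and 20 of the 21 pairs passed. The exception was TYROBP with C1QC (adjusted permutation p = 0.0642). With any 1 animal left out, 21 of 21 passed.

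The closest pair was CD14 and C1QB, with r = 0.959 (permutation p = 2e-05, adjusted p = 0.000165) and rho = 0.868 (permutation p = 0.00029), and r = 0.892 without CR replicates 2 and 6. TYROBP and C1QA had r = 0.923 (permutation p = 2e-05, adjusted p = 0.000165) and rho = 0.956 (permutation p = 1e-05, the smallest the resampling can give). Without control replicate 4 and CR replicate 2 this r was 0.875. C1QB and C1QC, whose products join in one molecule, had r = 0.908 (permutation p = 2e-05, adjusted p = 0.000165) and rho = 0.852 (permutation p = 0.00044), and r = 0.867 without CR replicates 2 and 6. C1QA and C1QB had r = 0.886 (permutation p = 0.00013, adjusted p = 0.000477) and rho = 0.967 (permutation p = 1e-05), and r = 0.874 without control replicate 5 and CR replicate 2.

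Probe sets of 1 gene gave lower r than these pairs of different genes. For CD68 the pair of probe sets had r = 0.597 (permutation p = 0.0316, adjusted p = 0.0474) and rho = 0.670 (permutation p = 0.0141). The bright and the dim C1QA probe set had r = 0.493 (permutation p = 0.0889, adjusted p = 0.128) and rho = 0.418 (permutation p = 0.158), and passed without control replicate 5 and CR replicate 2 (r = 0.643, adjusted permutation p = 0.0454). For MRC1, r was -0.416 between probe sets 1 and 2 (permutation p = 0.156, adjusted p = 0.206, rho = -0.297 with permutation p = 0.326). MRC1 probe set 1 had r from -0.457 to -0.107 with the other 7 genes, of which 0 passed. Without CR replicates 2 and 6 its r was -0.762 with CD14 (adjusted permutation p = 0.0171) and -0.726 with CD68 probe set 1 (adjusted permutation p = 0.0178), and both then passed. For CSF1R, TYROBP, C1QA, C1QB and C1QC the 2 animals left out were CR replicates 1 and 3, the farthest for MRC1 probe set 1. With these genes r was then between -0.273 and 0.196, and none passed. MRC1 probe set 2, in contrast, had r from 0.752 to 0.937 with the brightest probe sets of the same 7 genes, a comparison added after its values were seen. Its r with C1QA was 0.937 (permutation p = 1e-05, adjusted p = 0.000189 over all pairs of the 12 probe sets) with rho = 0.940 (permutation p = 1e-05), and 0.863 without control replicate 5 and CR replicate 2.

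**Figure D4:**
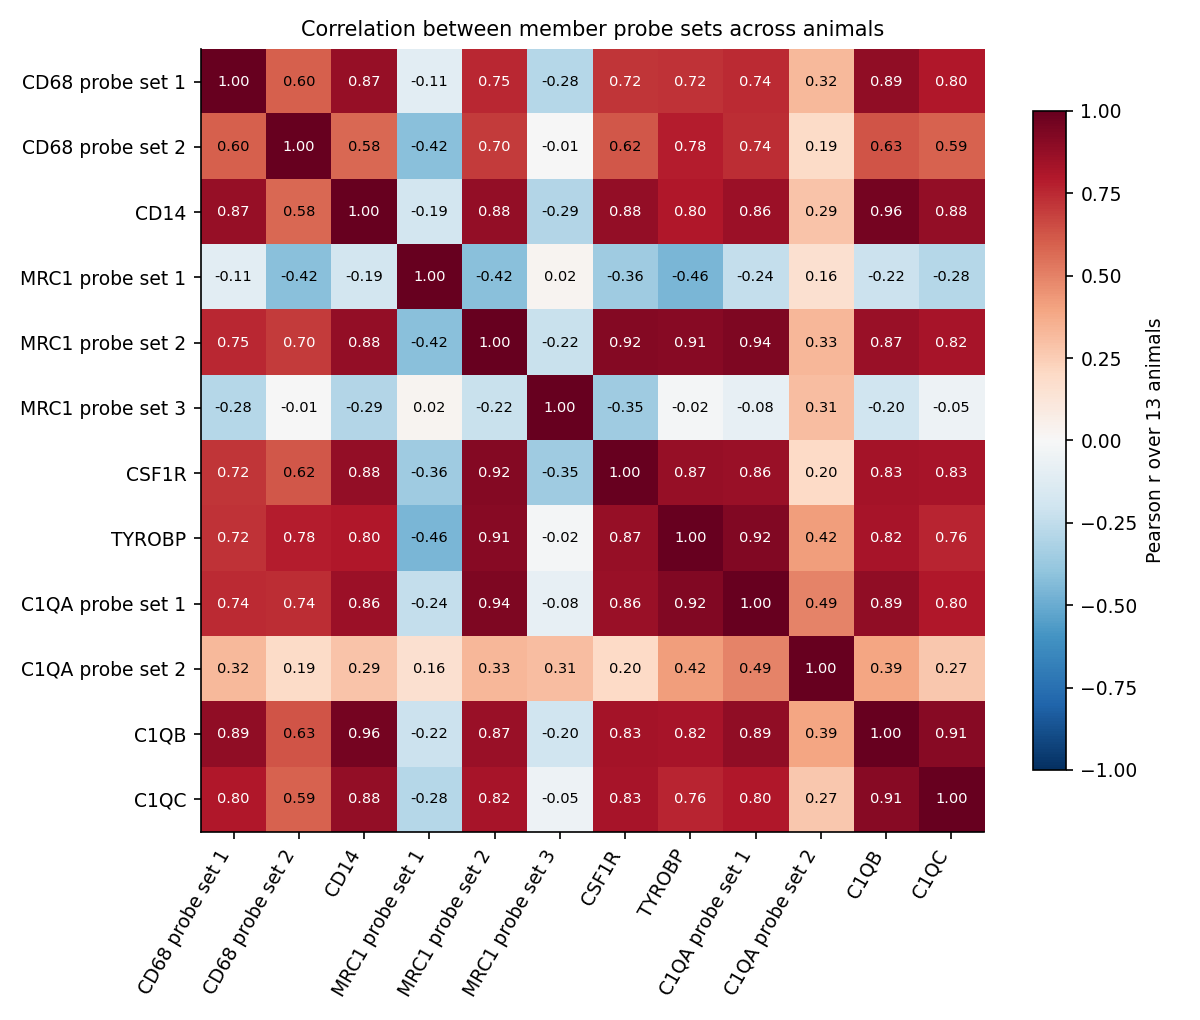
Pearson r over 13 animals between the 12 member probe sets, red for positive and blue for negative values. CD68 probe set 1, CD14, MRC1 probe set 2, CSF1R, TYROBP, C1QA probe set 1, C1QB and C1QC form a block of values from 0.72 to 0.96, while MRC1 probe sets 1 and 3 and C1QA probe set 2 stand outside it. CD68 probe set 2 has r from 0.58 to 0.78 with the probe sets of the block.

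The 3-prime over 5-prime ratios were set against the 10 tested members in the same way. For the GAPDH ratio r was -0.532 to 0.115 and for the actin ratio -0.594 to 0.515, and 0 of these 20 passed for r (lowest adjusted permutation p = 0.364). By rank the relation to the GAPDH ratio was stronger, with rho from -0.747 to -0.055 and an unadjusted permutation p under 0.05 for 6 of 10 members. For CD14 rho was -0.747 (permutation p = 0.00445, adjusted p = 0.0545), for CSF1R -0.736 (permutation p = 0.00545, adjusted p = 0.0545) and for MRC1 probe set 2 -0.709 (permutation p = 0.0085, adjusted p = 0.0567). After adjustment 0 of 20 passed for rho. Without the 2 animals farthest from the median GAPDH ratio, r was -0.607 for CD14 and -0.670 for CD68 probe set 1. Animals with a higher GAPDH ratio thus tended to have lower signals of these members. On residuals from both ratios, 20 of the 21 pairs passed, and CD68 probe set 1 with CSF1R did not (adjusted permutation p = 0.079).

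The pattern was uncommon among other transcripts. For the 5 members measured by 1 probe set each, the share of other tested probe sets with r of at least 0.8 over the 13 animals was 0.629% for CD14, 1.16% for CSF1R, 1.42% for TYROBP, 0.573% for C1QB and 0.262% for C1QC. Among the 9 other member probe sets, r was at least 0.8 for 6 with CD14, 6 with CSF1R, 4 with TYROBP, 7 with C1QB and 5 with C1QC. The median r with all other tested probe sets lay between -0.0032 and 0.021.

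The nearest genes were sought among 9811 other named genes by Pearson r over the 13 animals, as a description. C1QB was the nearest to CD14 (r = 0.959) and to C1QC (r = 0.908), and CD14 the nearest to C1QB. The second for both CD14 (r = 0.927) and C1QB (r = 0.941) was FXYD6, a regulator of the sodium pump. TYROBP lay closest to CD53, a leukocyte tetraspanin (r = 0.950), followed by the adhesion molecule ALCAM (r = 0.932). C1QA lay closest to NCF4, a subunit of the phagocyte NADPH oxidase (r = 0.956), followed by CD248, a marker of fibroblasts and pericytes (r = 0.945). CD68 probe set 1 was nearest to LOC707085 (r = 0.927) and to VSIG4, a complement receptor of resident macrophages (r = 0.919). CSF1R was nearest to the phosphatase gene PPP2CB (r = 0.912) and the chemokine gene CCL13 (r = 0.903), and C1QC had the phospholipase gene PLD1 second (r = 0.904). MRC1 probe set 1 lay closest to HERC1 (r = 0.890) and ZSCAN31 (r = 0.879), and the first member in its ranking was CD68, at place 5928.

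Further macrophage genes were taken from a list of 30, of which 23 had a probe set and 21 were tested. Of these 12 were higher and 9 lower in CR, 0 passed limma's test, and the median log2 difference was 0.038, against -0.012 over all tested probe sets. With 1 animal left out this median ranged from -0.068 to 0.13. The lowest p belonged to ITGB2, the leukocyte integrin beta chain, which differed by 0.76 ± 0.35 (SE) with an unadjusted p of 0.0473 and an adjusted p of 0.999 from limma. Its other tested probe set differed by 0.17. LGMN, a lysosomal protease, differed by 0.38 ± 0.18, and ITGAM by 0.32 ± 0.21. The ITGAM probe set had signals of 56543 to 103775 in CR muscle, against 40859.7 to 89073 in control muscle, and its r with the 5 single-probe-set members was between -0.508 and -0.243. Of all probe sets 99.9% were dimmer than it, and 99.91% were dimmer than the brightest CKM probe set. Whether the ITGAM probe set measures the macrophage integrin was not tested, and it is counted among the 12 higher genes.

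Part of this list followed the members. Correlations of 82 genes from the lists with CD14, CSF1R, TYROBP, C1QB and C1QC gave 410 values, adjusted together. Between 6 and 8 of the 21 macrophage genes passed with a positive r, depending on the member, and 4 passed with each of the 5 members: CD53, LYVE1, LYZ and VSIG4. The share of all tested probe sets that would pass was not worked out. At the stricter cut of r of at least 0.8 there were 1 to 5 of the 21 genes. The share of other tested probe sets at that cut was 0.262% to 1.42%. The median r of the 21 genes was 0.346 to 0.582 over the 5 members. ITGAM, ITGB2, MSR1, CX3CR1, LGMN and F13A1 had a negative r with each of the 5 members, from -0.577 to -0.345 for CX3CR1. LYVE1, a hyaluronan receptor of perivascular macrophages and lymphatic vessels, had r = 0.880 with TYROBP (permutation p = 4e-05, adjusted p = 0.00205) and rho = 0.956 (permutation p = 1e-05), and r = 0.867 without the 2 animals farthest from the TYROBP median. VSIG4 had r = 0.922 with C1QB (permutation p = 1e-05, adjusted p = 0.00176) and rho = 0.907 (permutation p = 4e-05), and r = 0.833 without the 2 farthest animals. LYZ, for lysozyme, had r = 0.900 with TYROBP (permutation p = 5e-05, adjusted p = 0.00205) and rho = 0.918 (permutation p = 2e-05), and 0.868 without the 2 farthest animals. In the other direction, F13A1, the factor XIII A chain, had r = -0.687 with C1QC (permutation p = 0.00974, adjusted p = 0.047) but rho = -0.593 with an adjusted p of 0.119 in the permutation test, and r = -0.444 without the 2 farthest animals.

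Macrophage growth factors and chemokines gave 4 higher and 5 lower of 9 tested genes, with a median of -0.017 (-0.10 to 0.058 with 1 animal left out), and 0 passed. CCL8, a monocyte chemoattractant, differed by -0.69 ± 0.27 (SE, log2), with an unadjusted p of 0.0215 and an adjusted p of 0.999 from limma, while its other tested probe set differed by 0.54. IL18 differed by 0.43 ± 0.33 and CSF2RB by -0.30 ± 0.25. CSF1 and IL34, the ligands of CSF1R, were below the filter. The anti-inflammatory cytokine gene IL10 had a negative r that passed with CSF1R (r = -0.707, permutation p = 0.00668, adjusted p = 0.037, rho = -0.610 with an adjusted p of 0.104) and with C1QC (r = -0.755, permutation p = 0.00299, adjusted p = 0.0224, rho = -0.764 with an adjusted p of 0.0238). Without the 2 farthest animals r was -0.614 and -0.669.

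The list of complement pathway enzymes and components gave 3 higher and 6 lower of 9 tested genes, with a median of -0.16, and 0 passed. It included C1QBP, counted as higher at 0.012, whose r with the 5 members was -0.569 to -0.316. Leaving out control replicate 4 gave a median of 0.057, and leaving out control replicate 5 gave -0.30. MASP2, a lectin-pathway protease, differed by 0.46 ± 0.31 (SE, log2). CFB, factor B of the alternative pathway, differed by -0.28 ± 0.30, or 0.0076 without control replicate 4, and C5 by -0.24 ± 0.27. Other tested probe sets of CFB differed by -0.65 to -0.62. The components C6, C7, C8A, C8B, C8G, C9, MBL2 and FCN1 were below the filter. C1S, the protease partnered with C1q in the C1 complex, and CFP, properdin, passed the correlation test with each of the 5 members. At r of at least 0.8 there were 0 to 1 of the 9 genes, depending on the member. For C1S and TYROBP r was 0.885 (permutation p = 2e-05, adjusted p = 0.00176) and rho 0.901 (permutation p = 8e-05), and r was 0.825 without the 2 farthest animals.

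Complement regulators and receptors gave 1 higher and 3 lower of 4 tested genes, with a median of -0.22, or -0.098 without control replicate 4 and -0.34 without control replicate 1, and 0 passed. SERPING1, the C1 inhibitor, differed by -0.41 ± 0.30 (SE, log2), or -0.12 without control replicate 4, CFI by -0.24 ± 0.25 and the decay-accelerating factor CD55 by -0.19 ± 0.28. C5AR1, CD55 and SERPING1 passed the correlation test with each of the 5 members. At r of at least 0.8 there were 0 to 3 of the 4 genes, depending on the member. The anaphylatoxin receptor C5AR1 had r = 0.894 with TYROBP (permutation p = 7e-05, adjusted p = 0.00221) and rho = 0.907 (permutation p = 6e-05), and r = 0.848 without the 2 farthest animals. CD55 had r = 0.854 with CD14 (permutation p = 3e-05, adjusted p = 0.00176) and rho = 0.896 (permutation p = 0.00016), and r = 0.843 without the 2 farthest animals.

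Markers of other cells moved with the members to different degrees. The fibroblast and matrix list had a median r of 0.296 to 0.525 over the 5 members, and 0 to 4 of 9 genes passed. At r of at least 0.8 there were 0 to 2 of the 9. Single matrix genes were as close as the macrophage genes named above. FBN1, for fibrillin, had r = 0.896 with TYROBP (permutation p = 5e-05, adjusted p = 0.00205) and rho = 0.978 (permutation p = 1e-05), and r = 0.873 without the 2 farthest animals. DCN, for the proteoglycan decorin, had r = 0.887 with TYROBP (permutation p = 3e-05, adjusted p = 0.00176) and rho = 0.967 (permutation p = 1e-05), and r = 0.945 without the 2 farthest animals. FBN1, DCN and DPT passed with CD14, CSF1R, TYROBP and C1QB, and none of the 3 with C1QC. The list's summed signal was 47191 to 112207 in CR muscle, against 43883.8 to 173340 in control muscle. The adipocyte list had a median r of 0.499 to 0.660, and 0 to 2 of 5 genes passed, with 0 at r of at least 0.8. Its summed signal was 9762 to 56037 in CR muscle, against 7546 to 49560.2 in control muscle. Endothelial markers had a median r of 0.193 to 0.341 with 0 of 10 past the threshold, and a summed signal of 6149 to 14394 in CR muscle, against 8596 to 22499.9 in control muscle. Muscle fibre genes had a negative median r, from -0.371 to -0.173, and 0 of 10 passed with a positive sign. MB passed with a negative sign with CSF1R, at r = -0.679 (permutation p = 0.0106, adjusted p = 0.049), with rho = -0.549 (permutation p = 0.0547, adjusted p = 0.164) and r = -0.725 without the 2 farthest animals. Their summed signal was 516199 to 902012 in CR muscle, against 382141 to 831202 in control muscle. The part of these cells in the shared variation of the macrophage genes was not tested.

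For the diet comparison these lists gave a median of -0.10 for fibroblasts and matrix (3 of 9 higher), -0.20 for adipocytes (1 of 5 higher), -0.32 for endothelium (0 of 10 higher) and 0.14 for muscle fibres (6 of 10 higher), and no gene passed. Beside these counts and those of the lists above, 48.1% of all tested probe sets were higher in CR. Counts and medians are of each gene's brightest probe set. Other tested probe sets of endothelial genes were higher in CR for CDH5 (0.55), TEK (0.26) and ENG (0.18). Those of PECAM1 (-0.78 to -0.70) and EMCN (-0.59 to -0.17) were lower. The values of the lists moved when control replicate 4 was left out. The medians were then 0.12 for fibroblasts and matrix, 0.096 for adipocytes, -0.18 for endothelium and -0.0096 for muscle fibres, COL1A1 was at 0.12 and CFD at 0.096, and the differences were -0.25 for PECAM1, -0.24 for VWF, -0.23 for DPT, -0.32 for LEP and -0.32 for FABP4. The genes with the lowest p were DPT (-0.61), COL1A1 (-0.35) and THY1 (-0.28), the adipocyte genes LEP (-0.87), FABP4 (-0.66) and CFD (-0.20, factor D, also counted in the complement list), and the endothelial genes CLDN5 (-1.01), PECAM1 (-0.54) and VWF (-0.50). In muscle fibres they were TTN (-0.70), MB (0.36) and CKM (0.29). Lymphocyte and granulocyte markers were mostly below the filter or without a named probe set, among them CD8A, MS4A1 and MPO (below) and CD3D, CD3E and CD3G (none named). Of the T, B and NK list 2 of 15 genes were tested, CD4 (0.34) and GNLY (-0.45), with a median r of -0.070 to 0.273 with the members, a median difference of -0.054 (-0.21 to 0.13 with 1 animal left out) and summed signals of 135 to 498 in CR muscle, against 247 to 439 in control muscle. Of the neutrophil and mast cell list 4 of 12 were tested, with a median difference of 0.34 (0.083 without control replicate 2) and a median r of -0.064 to 0.192. The mast cell protease CPA3 differed by 0.81 ± 0.47 (SE, log2), S100A8 by 0.62 ± 0.51 and S100A9 by -0.33 ± 0.80. Their summed signal was 479 to 2326 in CR muscle, against 384 to 1194 in control muscle.

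**Figure D5:**
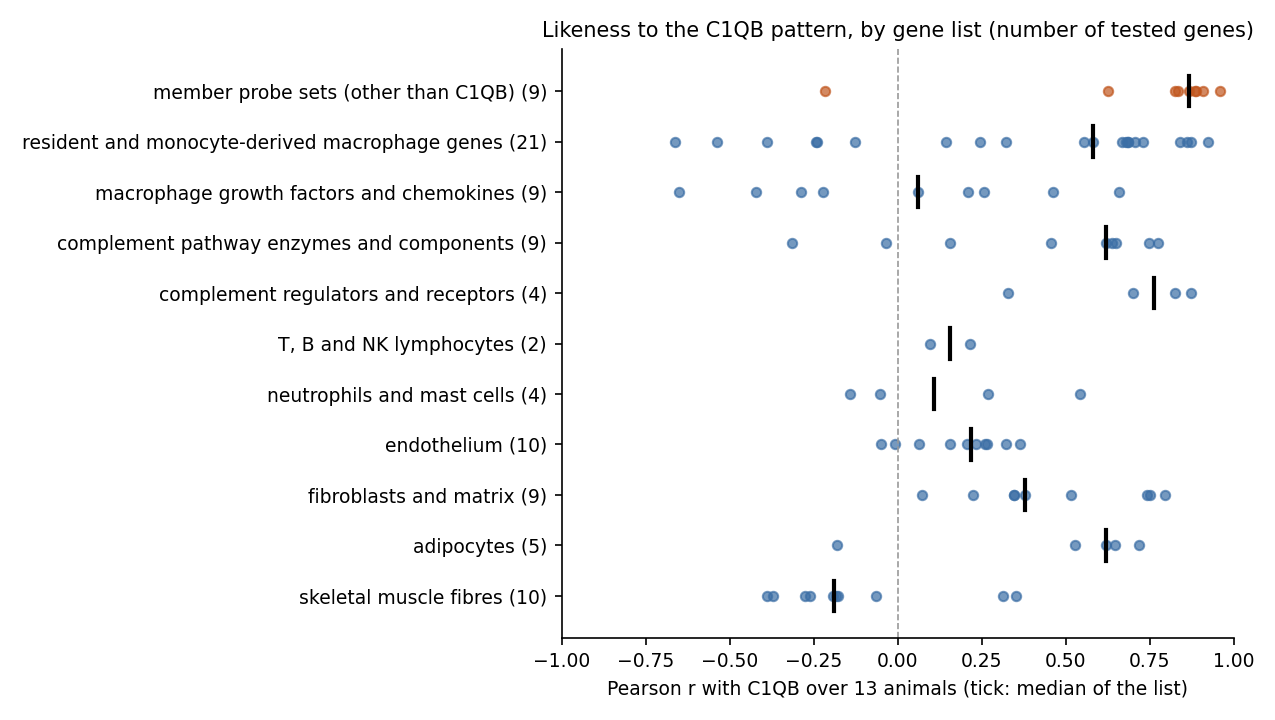
Pearson r with C1QB over 13 animals for the other tested member probe sets (orange, top row) and for the tested genes of each list (blue); the black tick is the median of the row and the number of genes stands in brackets. The members lie mostly above 0.8, and other macrophage and complement genes are spread, with list medians of 0.582, 0.620 and 0.762. Adipocyte genes have the same median of 0.620, the value of CFD, which is in that list and in the complement pathway list. Medians are 0.380 for fibroblasts and matrix, 0.060 for macrophage growth factors and chemokines, and -0.188 for muscle fibre genes.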

How the data were processed

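Biotinylated cRNA from Trizol-extracted total RNA was hybridised to Affymetrix arrays, 1 per animal, per the labels' protocols. The authors deposited linear intensity values, 1 per probe set and array, made with MAS5 per the submitters' processing notes (version not given there). Of 52865 probe sets 99 controls were removed. Signals under 1 (137 values) were set to 1 and log2 transformed, and the dimmer 50% of probe sets were left out, which left 26383. The platform annotation gave 1 symbol to 24956 probe sets, several to 361 and none to 27449, and the gene IDs of 24616 matched RefSeq, with 0 differing symbols. Members, gene lists and tests were chosen with earlier results of these data known.

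CR was compared with control by limma 3.58.1 (lmFit, then eBayes with a trend; R 4.3.3), tested on simulated data, at an adjusted p under 0.05. Correlations used two-sided permutation tests with 100000 resamples in numpy 2.4.6. Named genes were all member probe sets, the 2 nearest genes of each member, and, per list, the 3 of lowest p, by each gene's brightest probe set. The other genes named are examples chosen after their values were seen, or genes given for their role. Alternatives covered scaling, offset, filter, weights, RNA quality, the mean over probe sets, a replicate block and each animal left out.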

Additional observations from a re-analysis of the deposited data

Results flagged for a closer look

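For the 12 member probe sets and 29 list genes, each diet group was searched for an animal whose gap to the next was large against the group's range. Among 82 such groups 6 held one; by chance alone about 1 in 20 would, or 4.10. None was a member probe set. On the log2 scale CR replicate 2 had the highest DPT signal of its group, 12.09 with the next at 10.78, and the highest TTN signal, 12.51 with the next at 11.21. Control replicate 4 had the highest CFB signal, 11.88 with the next at 10.55, and the highest CLDN5 signal, 9.26 with the next at 8.13. The lowest GNLY signal among controls was 7.28 in replicate 1, and the lowest S100A9 signal was 4.45 in control replicate 2 with the next at 7.71.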

How the results depend on the processing

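No member passed under any alternative run. The signs of the small differences were not stable, with 33 values for single probe sets turned when 1 animal was left out and 24 under other alternatives. They are given as log2 differences, CR minus control, and the cause was not tested. Among 200 alternative values of the 10 list medians, which have no test, 28 turned sign, in 7 lists. With RNA quality covariates the difference was 0.28 for CD68 probe set 1, 0.15 for CD14, 0.34 for MRC1 probe set 2, 0.040 for CSF1R, 0.19 for C1QB, 0.19 for C1QC and 0.13 for CD55. With the replicate number as a block it was 0.36 for CD68 probe set 1, 0.0747 for CD14, 0.27 for MRC1 probe set 2, 0.28 for C1QA probe set 2, 0.21 for C1QB, 0.076 for C1QC and 0.029 for CD55. CR and control animals of the same number were not alike (r of same-numbered deviations -0.203 to 0.020), and the block called 0 probe sets. Whether the numbers carry an order of collection or processing was not tested. With array quality weights it was -0.013 for MRC1 probe set 1, 0.050 for MRC1 probe set 2 and 0.045 for C1QC. After median centring it was -0.000551 for MRC1 probe set 1 and -0.029 for TYROBP. Averaging a gene's probe sets gave 0.094 for CD68, -0.097 for C1QA and 0.18 for CD55. Without CR replicates 2 and 6, chosen after seeing the data, it was 0.016 for CD68 probe set 1 and -0.11 for TYROBP.

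With 1 animal left out the ranges were -0.34 to 0.19 for CD68 probe set 1, -0.039 to 0.095 for MRC1 probe set 1, -0.45 to 0.19 for MRC1 probe set 2, -0.24 to 0.26 for TYROBP, -0.16 to 0.35 for C1QA probe set 1, -0.48 to 0.011 for C1QA probe set 2, -0.28 to 0.098 for C1QB, -0.23 to 0.078 for C1QC, -0.42 to 0.0076 for CFB, -1.05 to 0.084 for S100A9, -0.80 to 0.12 for COL1A1 and -0.54 to 0.096 for CFD. List medians that turned ranged from -0.068 to 0.13 for macrophage genes, -0.10 to 0.058 for growth factors and chemokines, -0.30 to 0.057 for the complement pathway, -0.21 to 0.13 for lymphocytes, -0.33 to 0.12 for fibroblasts and matrix, -0.54 to 0.096 for adipocytes and -0.0096 to 0.35 for muscle fibres. The number of probe sets past the threshold was 0, and 0 to 1 with an animal left out: 1 without control replicate 1 and 1 without control replicate 5. Under each other alternative it was 0. Of the 33 member correlations 22 passed, 21 to 23 with an animal left out, and 24 without the 2 farthest animals. Signals near the filter limit the dim probe sets, and the 13 arrays limit the rest.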
